A study of Mus musculus with 15 samples.

Results

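The comparison concerns cells that had lost both reporters, Sox2 and Tbxt, after 7 d of culture in FGF/CHIR medium, and that differed by the reporter of the cells the culture was started from. The members are 4 of the 15 bulk RNA libraries of the series, chosen by label alone: 3 libraries of double-negative (DN) cells from Tbxt::GFP+ cells, here called Tbxt-derived, and 1 library of DN cells from Sox2::mCherry+ cells, here called Sox2-derived. The line behind every library was the mouse ES cell line STR-KI, of genotype Sox2::mCherry/WT and Tbxt::GFP/WT, so each reporter sits on one allele with the other allele wild type, and the controls carry both reporters too. Cells were grown in N2B27 medium, first for 48 h with 10 ng/mL FGF2 and then for 24 h with FGF2 and 5 µM CHIRON99021 (CHIR), an inhibitor of GSK3 that activates WNT signalling. Sorted cells positive for both reporters were the neuromesodermal progenitors (NMPs), and a further 48 h in FGF/CHIR gave the Sox2::mCherry+ and the Tbxt::GFP+ 48 h populations, with 2 libraries each. The labels name the cells that entered the 7 d culture by their reporter and do not state from which sort they were taken, and the 48 h populations stand in for them below. Other libraries used for context were the Sox2::mCherry+ cells of the Sox2-derived FGF/CHIR culture (1 library) and the DN cells of Sox2-derived cells kept in FGF alone (1 library). The labels do not say whether numbered libraries came from separate cultures, so the spread between them may be technical. A single reporter line was used, and a DN gate collects every cell without reporter signal, whatever its identity.

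NMPs are cells of the caudal embryo that keep Sox2 and Brachyury, the product of Tbxt, and that can give rise to spinal cord or to paraxial mesoderm. WNT and FGF signals hold this state, Brachyury with its target Tbx6 drives the mesodermal exit, and Sox2 marks the neural one. Mesodermal cells that leave the progenitor state go through an epithelial-to-mesenchymal transition, in which E-cadherin, keratins and claudins are lost and an interstitial matrix of collagens and proteoglycans is made. Gut and visceral endoderm, by contrast, are epithelia marked by Sox17, Foxa2 and the absorptive receptor proteins cubilin and amnionless.

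Values are CPM, the reads of a gene scaled to the same total in each library, for genes as the deposited table names them. The 4 DN libraries held 3.43, 5.05 and 3.797 M reads (Tbxt-derived replicates 1, 2 and 3, with M for 1e+06) and 4.37 M reads (Sox2-derived), as estimated from the step between low values, of which 74.5 to 76.8% of nonzero values per library were whole multiples. A level of 3 reads, the floor used per library, was at most 0.874 CPM in the Tbxt-derived libraries and 0.686 CPM in the Sox2-derived one. These floors cover counting error only. The mitochondrial share of CPM was 6.24 to 6.98% in the 4 libraries. Levels of Tbxt-derived libraries are always given in the order of replicates 1, 2 and 3, followed by the Sox2-derived library. Log2 fold changes are given ± SE, were taken on log2(CPM + 1) as Tbxt-derived over Sox2-derived, and are negative where the Tbxt-derived cells were lower. The words higher and lower are used of an adjusted p under 0.05 in a limma fit of all 15 libraries. Where either side held at most 3 reads, levels replace the fold change, or a bound against the floor is given where all 3 Tbxt-derived libraries are at 0. The Sox2-derived group had 1 library and took its spread from the replicated groups, so a p cannot separate the source from that library.

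The 2 reporter genes were low in the DN libraries. Sox2 stood at 1.46, 0 and 0.263 against 5.03 CPM, and Tbxt (listed in the table as T) at 0.582, 0.396 and 2.11 against 1.14 CPM. Sox2 was lower in the Tbxt-derived cells (adjusted p = 0.0036), while Tbxt did not pass the test (adjusted p = 0.81). In the Sox2::mCherry+ cells sorted from the same Sox2-derived culture, Sox2 stood at 199 CPM.

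The Tbxt-derived libraries were not alike, and replicate 1 stood apart from the other two. Between replicates 2 and 3, 212 of 12943 genes (1.64%) differed by more than 2-fold on the log2(CPM + 1) scale, whereas replicate 1 differed by this much from replicate 2 in 1286 genes (9.94%) and from replicate 3 in 1312 genes (10.1%). The Sox2-derived library differed from replicates 1, 2 and 3 in 2195 (17.0%), 2467 (19.1%) and 2797 genes (21.6%), more than any Tbxt-derived pair. Results are therefore also given without replicate 1 where this ended the call of a named gene or moved a list's count by over 1.5 times.

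Of 12943 genes tested, 2167 (16.7%) differed between the sources, 1020 (7.88%) being higher and 1147 (8.86%) lower in the Tbxt-derived cells. The median log2 fold change over all genes tested was 0.03. In each of these 2167 genes the Sox2-derived library lay outside the range of the 3 Tbxt-derived libraries, as it also did in 71.0% of all genes tested. Without replicate 1 the count was 3168 of 12842 genes tested, without replicate 2 it was 1632 of 12834, and without replicate 3 it was 1367 of 12792. The share of 16.7% is the background against which the counts of the gene lists below are read in the full fit. List counts without a replicate are to be read against the count of that fit, since the number of calls changed over all genes. Among the 12 largest differences on each side, keratins, claudins, E-cadherin and cubilin stood on the Sox2-derived side, and fibulins, type I collagen and the mesodermal regulators Shox2 and Osr1 on the Tbxt-derived side.

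**Figure D1:**
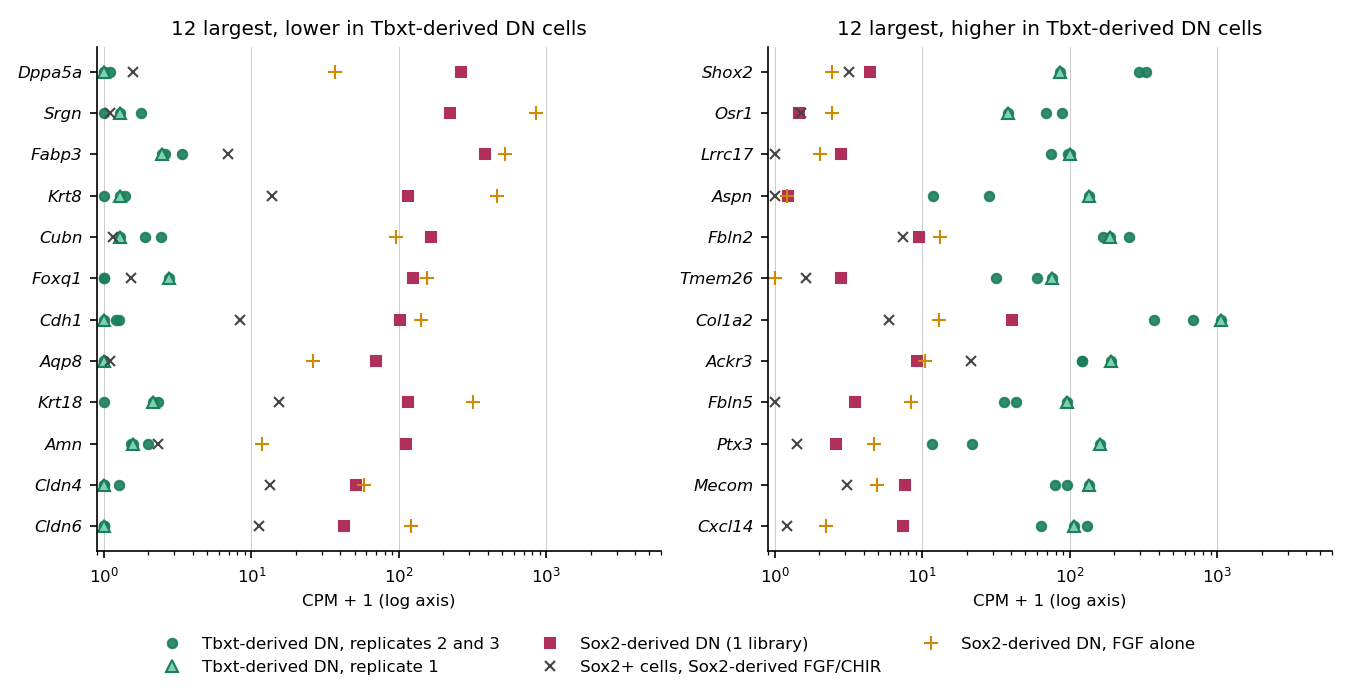
Levels (CPM + 1, log axis) of the 12 genes with the largest differences in each direction, with triangles and circles for the 3 Tbxt-derived DN libraries, squares for the 1 Sox2-derived DN library, crosses for Sox2+ cells of the same Sox2-derived culture and plus signs for Sox2-derived DN cells kept in FGF alone. In the left panel all Tbxt-derived libraries sit at or below 2.37 CPM and the Sox2-derived DN library between 41.4 and 382 CPM, and in the right panel the order is inverted.

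Endodermal genes were present in the Sox2-derived DN library and close to the floor in the Tbxt-derived ones. In bulk RNA, fewer cells of a type and less RNA per cell cannot be told apart. Cubn, which encodes the absorptive receptor cubilin, stood at 0.291, 0.891 and 1.45 against 164 CPM (adjusted p = 4.1e-06). Its partner Amn, encoding amnionless, stood at 0.582, 0.990 and 0.527 against 110.2 CPM (adjusted p = 1.2e-06). Both receptor genes thus were far above the floor in the Sox2-derived library and at or near it in the Tbxt-derived ones. Sox17, a transcription factor of the endoderm, was at 0 in the 3 Tbxt-derived libraries and at 37.9 CPM in the other, at least 43.4-fold higher (adjusted p = 7.6e-05). Foxa2, a pioneer factor of gut endoderm, stood at 0.291, 0 and 0.263 against 10.5 CPM (adjusted p = 0.00013). Ttr, the transthyretin gene of visceral endoderm and liver, was at 0 against 5.94 CPM, at least 6.80-fold (adjusted p = 0.0061). Of the 11 endoderm genes on the list, 6 reached 5 CPM in 2 of the 15 libraries. All of these did so through the Sox2-derived DN libraries of the 2 media or the Sox2::mCherry+ cells kept in FGF, and none through a Tbxt-derived library, so their shared direction was fixed by the filter and their count gives no support. The other 5 members, Foxa1, Hnf4a, Afp, Apoa1 and Cer1, ranged from 0 to 1.600 CPM in the 4 DN libraries, and the last 3 of them were at 0 in the Sox2-derived one.

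Epithelial junction and keratin genes showed the same order of libraries. Cdh1, encoding E-cadherin, stood at 0, 0.198 and 0.263 against 101 CPM (adjusted p = 3.1e-06). The keratin pair of simple epithelia followed, with Krt8 at 0.291, 0 and 0.395 against 115 CPM (adjusted p = 1.6e-07) and Krt18 at 1.16, 0 and 1.32 against 115 CPM (adjusted p = 6e-06). Among the claudins, which seal tight junctions, Cldn6 and Cldn3 were at 0 in every Tbxt-derived library against 41.4 and 29.5 CPM, at least 47.4-fold and 33.8-fold higher. Cldn4 stood at 0, 0 and 0.263 against 49.8 CPM and Cldn7 at 0, 0.198 and 0 against 35.2 CPM. The cell adhesion gene Epcam kept a measurable level in Tbxt-derived cells, at 1.46, 2.97 and 2.90 against 68.5 CPM (-4.37 ± 0.38, adjusted p = 2e-05). The polarity gene Crb3 and the splicing factor gene Esrp1, both typical of epithelia, were at 0 against 14.6 and 5.71 CPM. In all, 12 of 13 epithelial genes were lower in Tbxt-derived cells and none was higher, with a list median of -4.93 (-5.08 with the floor). None of the 13 reached the filter's 5 CPM in a Tbxt-derived library at 7 d. The filter thus favoured this direction, and the count and median give no support. Grhl2, an epithelial transcription factor, was the member that did not pass, at 0.291, 0 and 0 against 2.74 CPM (adjusted p = 0.18).

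The summed level of the 11 endoderm genes was 2.04, 2.08 and 2.50 CPM in the Tbxt-derived libraries and 348 CPM in the Sox2-derived one, and that of the 13 epithelial genes 6.11, 3.56 and 5.40 against 593 CPM. In the Sox2::mCherry+ cells of the same Sox2-derived culture these sums were 5.09 and 109 CPM. In the Sox2-derived DN cells kept in FGF alone they were 644 and 1530.5 CPM. The endodermal sum was thus high in the DN sorts from Sox2::mCherry+ cells in both media and near the Tbxt-derived level in the Sox2+ sort, each of these being 1 library with no replicate. Sox17 read 0.103 CPM in that Sox2+ library and 228 CPM in the FGF DN library, and Cubn read 0.154 and 95.2 CPM. The same Sox2-derived DN library also carried mesenchymal genes, as described further on. The part of the endodermal and epithelial markers in the other differences between the sources was not tested.

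Several other genes of the 12 with the largest differences were at or near the floor in Tbxt-derived cells. Srgn, encoding the proteoglycan serglycin, stood at 0.291, 0 and 0.790 against 221 CPM (adjusted p = 2.6e-05). Fabp3, a fatty acid binding protein gene, stood at 1.46, 1.58 and 2.37 against 382 CPM (-7.11 ± 0.34, adjusted p = 1.6e-07). Its value is uncertain as a locus, since the table lists a processed copy, Fabp3-ps1, with the same order of libraries, at 0.291, 0.297 and 0 against 37.6 CPM. Foxq1, a forkhead factor gene of epithelia, stood at 1.75, 0 and 0 against 124 CPM (adjusted p = 2.1e-05), and the water channel gene Aqp8 at 0 against 68.8 CPM, at least 78.8-fold (adjusted p = 3.1e-06). Gata6 and Gata4, factors of endoderm and of cardiac and lateral mesoderm, were also lower, at 7.28, 0.594 and 0.527 against 99.0 CPM (-5.20 ± 0.81, adjusted p = 0.0016) and 1.75, 1.39 and 1.58 against 33.6 CPM (-3.75 ± 0.51, adjusted p = 0.00047).

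Genes of pluripotent cells were lower in Tbxt-derived cells in 5 of 11 tested list members (list median -1.81), and none was higher. In 7 of the 11 a side held at most 3 reads. Dppa5a, Pou5f1, Zfp42, Utf1 and Lin28a, given next, stayed under the filter's 5 CPM in every Tbxt-derived library. The filter thus favoured this direction, and the count and median give no support. Dppa5a, a gene of embryonic stem and germ cells, had the largest fitted difference of all named genes, at 0, 0.0990 and 0 against 264 CPM (adjusted p = 0.002). It read 35.9 CPM in the FGF DN library and 0.583 CPM in the Sox2+ one. Pou5f1, encoding the pluripotency factor Oct4, stood at 0.728, 0.495 and 2.11 against 52.5 CPM (-4.74 ± 0.52, adjusted p = 9.8e-05). Zfp42 and Utf1, further markers of that state, stood at 0, 0.198 and 0.395 against 16.1 CPM and 0, 0 and 0.263 against 12.1 CPM. Lin28a, which blocks let-7 microRNA maturation in early embryonic cells, stood at 0.437, 0.198 and 0.527 against 15.2 CPM, below the 117 CPM of the Sox2+ library. Nanog and Otx2 were not part of this set. Nanog stood at 0.582, 0 and 0 against 0.229 CPM, and Otx2 was at 0 in all 4 libraries.

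The NMP genes were low in both kinds of DN cells, with the Sox2-derived library above the others in several of them. Nkx1-2, a homeobox gene of the NMP region, stood at 1.75, 0.396 and 0.263 against 50.5 CPM (adjusted p = 4.1e-06), against 189 CPM in the Sox2+ library. Cdx2, the caudal homeobox gene, stood at 1.46, 0.396 and 0.527 against 8.69 CPM (adjusted p = 5.2e-05), against 294 CPM in the Sox2+ library. The Sox2-derived DN library was in Cdx2 nearer in CPM to the Tbxt-derived ones than to the Sox2+ sort of its own culture. In Nkx1-2 this also held in CPM, but on the log2(CPM + 1) scale that library was nearer to the Sox2+ sort. Cyp26a1, encoding a retinoic acid degrading enzyme of the tail bud, was at 0 against 11.0 CPM, at least 12.6-fold (adjusted p = 7.1e-06). The zinc finger genes Sp8 and Sp5, both WNT targets, stood at 0.291, 0 and 1.05 against 5.71 CPM and 4.08, 27.7 and 20.5 against 80.0 CPM, and Sp5 did not pass without replicate 3 (adjusted p = 0.052). Altogether 5 of 14 members were lower and none higher (list median -0.50). In 10 of the 14 a side held at most 3 reads. Nkx1-2, Cdx2, Cyp26a1 and Sp8 stayed under the filter's 5 CPM in every Tbxt-derived library, while Sp5 was above it in replicates 2 and 3. The filter thus favoured this direction, and the count and median give no support. Wnt3a and Wnt8a were at 0 in all 4 libraries.

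Several genes of the collagen and glycoprotein lists that encode basement membrane proteins were lower in Tbxt-derived cells, and others were not. Lama1, the laminin chain of early embryonic basement membranes, stood at 8.74, 11.5 and 11.3 against 138 CPM (-3.60 ± 0.30, adjusted p = 1.3e-05). Lamc1 and Lamb1, the chains it assembles with, stood at 48.9, 28.9 and 28.7 against 155 CPM (-2.14 ± 0.32) and 105, 131 and 181 against 340.1 CPM (-1.32 ± 0.26). The type IV collagen genes Col4a1 and Col4a2 stood at 194, 138 and 145 against 516 CPM (-1.71 ± 0.29) and 105, 68.7 and 85.1 against 241 CPM (-1.49 ± 0.27). All 5 were lower, and each of them was higher still in the FGF DN library, where Lama1 read 1049.8 CPM and Col4a1 2864 CPM. Lama2, a laminin chain of muscle and mesenchyme, went the other way, at 15.6, 6.04 and 9.35 against 0.686 CPM (adjusted p = 0.0063). The linker genes Nid1 and Nid2 did not pass the test, at 131, 123 and 139.8 against 80.7 CPM and 74.5, 140.4 and 131 against 120.2 CPM.

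Cell cycle genes were moderately lower in Tbxt-derived cells, with 9 of 13 past the threshold, none higher, and a list median of -0.68. Bub1, a mitotic checkpoint kinase gene, stood at 34.4, 25.5 and 30.0 against 64.2 CPM (-1.08 ± 0.26, adjusted p = 0.014), and Birc5, encoding survivin, at 108, 109 and 92.7 against 199 CPM (-0.94 ± 0.18, adjusted p = 0.0036). The replication genes Pcna and Mcm5 stood at 183, 141 and 110.3 against 279 CPM (-0.97 ± 0.23) and 49.8, 43.2 and 42.1 against 89.6 CPM (-0.98 ± 0.18). Mki67 and Top2a did not pass the test, at 56.5, 31.5 and 44.4 against 43.2 CPM and 234, 169.9 and 199 against 195 CPM. Of the 11 p53 targets, 4 were lower: Cdkn1a, encoding the cell cycle inhibitor p21, stood at 254, 152 and 95.9 against 544 CPM (-1.81 ± 0.41, adjusted p = 0.014), and Aen, an exonuclease gene, at 18.8, 11.6 and 6.72 against 30.5 CPM (-1.34 ± 0.36, adjusted p = 0.024). Ccng1 and Sesn2 completed these, and both lost the call without replicate 2 (adjusted p = 0.068 and 0.078) and without replicate 3 (adjusted p = 0.063 and 0.087). The number of lower p53 targets was 2 without replicate 2 or replicate 3 and 6 without replicate 1, and without replicate 2 there was also 1 higher target. In the hypoxia and glycolysis list 2 of 11 were lower, the hexokinase gene Hk2 at 27.1, 17.2 and 19.8 against 81.6 CPM (-1.91 ± 0.31) and the glucose transporter gene Slc2a1 at 47.8, 49.9 and 70.8 against 114 CPM (-1.03 ± 0.26), and none higher. Without replicate 1 the counts were 2 higher and 2 lower.

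**Figure D2:**
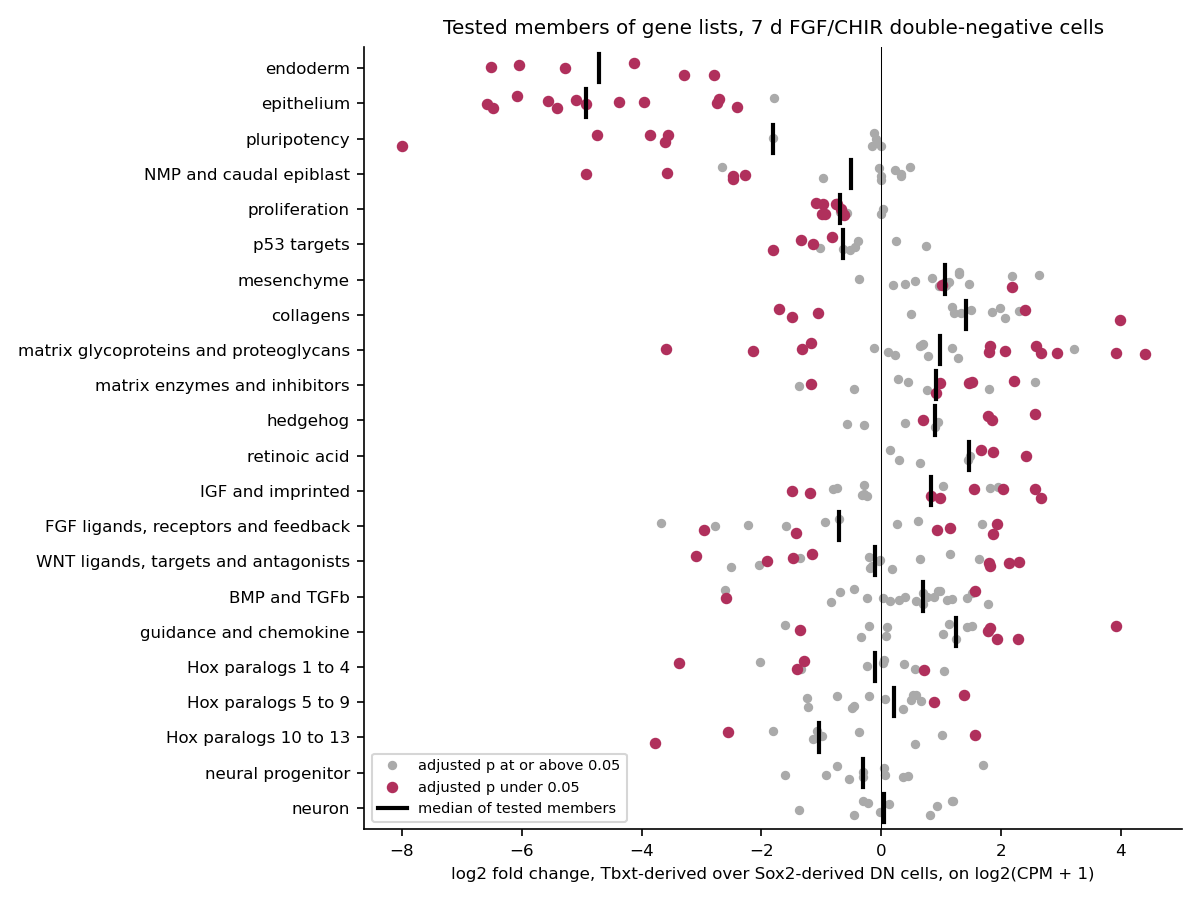
log2 fold change (Tbxt-derived over Sox2-derived DN cells, on log2(CPM + 1)) of each tested member of 22 gene lists, coloured where the adjusted p is under 0.05, with a black bar at the list median. Epithelial genes lie at the left with a median of -4.93, as do endodermal genes, whose direction the filter fixed. No epithelial gene passed the filter through a Tbxt-derived library at 7 d either, so their side gives no support. Mesenchymal genes have a median of 1.07 with 2 of 17 past the threshold.

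On the other side, the 12 genes with the largest differences toward Tbxt-derived cells included transcription factor, matrix and chemokine-related genes. Shox2, a homeobox gene of limb and sinus node mesenchyme, stood at 85.02, 295 and 329 against 3.43 CPM (5.52 ± 0.62, adjusted p = 0.00011). Osr1, a zinc finger factor gene of intermediate and lateral mesoderm, stood at 37.3, 67.5 and 87.7 against 0.457 CPM (adjusted p = 0.00013), the Sox2-derived value being under 3 reads. Mecom, encoding the zinc finger factor EVI1, stood at 134, 78.1 and 94.0 against 6.63 CPM (3.72 ± 0.41, adjusted p = 9e-05). Among the Tbxt-derived libraries Shox2 was lowest in replicate 1 and Mecom was highest there. Fbln2 and Fbln5, which encode the elastic fibre proteins fibulin 2 and fibulin 5, stood at 185, 168 and 253 against 8.46 CPM (4.40 ± 0.42, adjusted p = 3.8e-05) and 94.9, 35.04 and 42.4 against 2.51 CPM (3.92 ± 0.51, adjusted p = 0.00032). Lrrc17, a secreted leucine-rich repeat protein gene, stood at 98.7, 73.8 and 95.9 against 1.83 CPM (4.99 ± 0.39, adjusted p = 7.3e-06). Aspn, the small proteoglycan gene of asporin, stood at 134, 10.9 and 27.4 against 0.229 CPM (adjusted p = 0.0039), and the pentraxin gene Ptx3 at 160.4, 10.7 and 20.8 against 1.600 CPM (3.73 ± 1.02, adjusted p = 0.029). For Aspn and Ptx3 replicate 1 held most of the level, and both stayed past the threshold without it (adjusted p = 8.5e-05 and 0.00099). Ackr3, the scavenger receptor for the chemokine CXCL12, stood at 188, 120.4 and 119 against 8.23 CPM (3.93 ± 0.38, adjusted p = 3.8e-05), and Cxcl14, itself a chemokine gene, at 106, 62.7 and 130.1 against 6.40 CPM (3.70 ± 0.48, adjusted p = 0.00031). Tmem26, a membrane protein gene, stood at 74.2, 30.7 and 59.0 against 1.83 CPM (4.21 ± 0.55).

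Mesenchymal identity genes were expressed from both sources. Of 17 tested, 16 had a positive log2 fold change and the median was 1.07 (0.03 over all genes), but only 2 passed the threshold, or 4 without replicate 1 and 1 without replicate 2 or 3, and none was lower. Prrx2, a homeobox gene of limb and craniofacial mesenchyme, stood at 382, 297 and 325 against 72.5 CPM (2.18 ± 0.44, adjusted p = 0.0058). Zeb2, a factor of epithelial-to-mesenchymal transition, stood at 71.9, 81.2 and 84.9 against 38.6 CPM (1.02 ± 0.29, adjusted p = 0.033), and lost the call without replicate 2 (adjusted p = 0.066) or replicate 3 (adjusted p = 0.08). Prrx1 stood at 889, 895 and 832 against 316 CPM, Twist1 at 956, 1645 and 1862 against 582 CPM and Cdh11, the mesenchymal cadherin gene, at 1211, 886 and 888 against 448 CPM, none of which passed (adjusted p = 0.23, 0.083 and 0.078). The Sox2-derived DN library thus held these 3 genes at levels above its own Sox2+ sort, which read 61.3, 179 and 112 CPM. The summed level of the 17 genes was 8116, 10217 and 11034 CPM against 4524 CPM, and 2555 CPM in the Sox2+ sort.

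Genes of the collagen, glycoprotein and matrix enzyme lists differed in part and in both directions. The lower ones included the basement membrane genes Lama1, Lamb1, Lamc1, Col4a1 and Col4a2 described above. Col1a2, an alpha chain of type I collagen, was the largest of the collagens, at 1053, 369 and 685 against 39.8 CPM (3.98 ± 0.77, adjusted p = 0.0078), and Col6a2, of the microfibrillar type VI collagen, stood at 87.6, 85.5 and 121 against 17.6 CPM (2.40 ± 0.50, adjusted p = 0.0072). Col1a1, the partner chain of Col1a2 and on the same list, did not pass, at 1610.5, 210.5 and 476 against 138 CPM (adjusted p = 0.29), with replicate 1 far above the rest. Col3a1 stood at 3023, 3155 and 3599 against 1152 CPM (adjusted p = 0.073). Without replicate 2, the count of higher collagen genes was 4. With the type IV genes above and Col18a1 (33.8, 39.0 and 31.6 against 73.4 CPM, -1.06 ± 0.22), 2 of 14 collagen genes were higher and 3 lower, and the median was 1.42. Of 22 tested glycoproteins and proteoglycans 8 were higher and 4 lower, with a median of 0.98. Dcn, encoding decorin, stood at 162, 71.5 and 115 against 13.5 CPM (2.94 ± 0.41, adjusted p = 0.00053), Mfap4, a microfibril protein gene, at 116, 66.9 and 101 against 14.6 CPM (2.58 ± 0.48), and Fbn1, encoding fibrillin 1, at 65.2, 50.7 and 51.9 against 12.6 CPM (2.06 ± 0.32). Sparc, a collagen-binding matrix glycoprotein gene, was among the lower ones, at 1211, 722 and 732 against 1945 CPM (-1.17 ± 0.27, adjusted p = 0.012), and read 8327 CPM in the FGF DN library. Tnc, the tenascin C gene, did not pass, at 244, 193 and 205 against 181 CPM (adjusted p = 0.67). Matrix enzyme and inhibitor genes were higher in 5 and lower in 1 of 13, including Loxl1, a gene of an elastin crosslinking enzyme (80.1, 58.4 and 90.1 against 25.6 CPM, 1.51 ± 0.42, adjusted p = 0.026; without replicate 3 adjusted p = 0.079), and Timp2, a metalloprotease inhibitor gene (201, 150.3 and 171 against 62.2 CPM, 1.46 ± 0.34, adjusted p = 0.012). Timp1 was the lower one (11.9, 7.33 and 8.69 against 21.9 CPM, -1.18 ± 0.33, adjusted p = 0.03) and lost its call without replicate 2 or 3 (adjusted p = 0.076 and 0.072), while without replicate 1 the list had 2 lower genes.

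Hedgehog pathway genes on the receiving side were higher in Tbxt-derived cells in 4 of 9 tested (median 0.90), and none was lower. Gas1, Boc and Cdon encode the co-receptors that help Patched bind the ligand. Gas1 stood at 846, 738 and 956 against 234 CPM (1.84 ± 0.20, adjusted p = 9.4e-05), Boc at 91.4, 46.9 and 58.5 against 9.83 CPM (2.57 ± 0.42, adjusted p = 0.0017) and Cdon at 153, 148 and 203 against 47.8 CPM (1.78 ± 0.38, adjusted p = 0.008). Smo, the signal transducer, stood at 133, 127 and 130.5 against 80.3 CPM (0.69 ± 0.18, adjusted p = 0.021) and did not pass without replicate 3 (adjusted p = 0.051). The pathway's target genes did not pass, with Ptch1 at 20.4, 22.7 and 25.4 against 28.0 CPM and Gli1 at 2.04, 16.8 and 14.5 against 3.89 CPM.

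Retinoic acid handling genes were higher in 3 of 8 (median 1.47), or in 6 without replicate 1. Crabp1, a cytoplasmic retinoic acid binding protein gene, stood at 638, 1263 and 1587 against 202 CPM (2.42 ± 0.50, adjusted p = 0.0092). Replicate 1 was the lowest of the Tbxt-derived libraries and still above the Sox2-derived one. Rarb, a receptor gene that responds to retinoic acid, stood at 6.41, 5.74 and 12.1 against 1.37 CPM (1.87 ± 0.58, adjusted p = 0.043) and lost the call without replicate 2 or 3 (adjusted p = 0.052 and 0.12). Crabp2 and Dhrs3, which is induced by retinoic acid, stood at 170.3, 506 and 453 against 123 CPM and 9.90, 39.6 and 44.2 against 8.69 CPM, and passed without replicate 1 (adjusted p = 0.00074 and 0.0025) and not with it.

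Imprinted and IGF genes differed in both directions, 6 higher and 2 lower of 17 (median 0.83). Meg3, an imprinted long noncoding RNA gene, stood at 1193, 1627 and 1656 against 232 CPM (2.67 ± 0.29, adjusted p = 8.9e-05), and its neighbour in the same imprinted domain, Dlk1, a Notch-like membrane protein gene, at 185, 60.0 and 96.7 against 16.5 CPM (2.57 ± 0.47, adjusted p = 0.0035). Cdkn1c, an imprinted cell cycle inhibitor gene, stood at 380.0, 382 and 419.8 against 95.3 CPM (2.03 ± 0.22, adjusted p = 7.2e-05), and Igfbp4, an IGF binding protein gene, at 744, 631 and 694 against 233 CPM (1.56 ± 0.22, adjusted p = 0.00057). Mest and Peg10, both expressed from the paternal allele, were the lower ones, at 495, 538 and 442 against 1118 CPM (-1.19 ± 0.21) and 102, 42.2 and 36.3 against 154 CPM (-1.49 ± 0.44), and Peg10 lost the call without replicate 2 or 3 (adjusted p = 0.09 and 0.083). Without replicate 1 the lower members were 4. Igf2, the growth factor gene, stood at 967, 3090.1 and 3220.3 against 601 CPM and did not pass (adjusted p = 0.057).

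FGF pathway genes differed in both directions. Fgfr2 stood at 102, 118 and 107 against 27.7 CPM (1.94 ± 0.32, adjusted p = 0.0016) and Fgfr1 at 264, 251 and 301 against 121 CPM (1.16 ± 0.21, adjusted p = 0.003), both higher in Tbxt-derived cells. Fgf10, a ligand of mesenchyme, stood at 17.5, 4.75 and 5.14 against 1.37 CPM (1.87 ± 0.59, adjusted p = 0.047) and did not pass without replicate 3 (adjusted p = 0.05). Etv4, a transcription factor gene induced by FGF, was lower at 9.03, 2.57 and 3.16 against 40.2 CPM (-2.96 ± 0.55, adjusted p = 0.0048). Dusp4, a phosphatase gene that restrains ERK, stood at 2.91, 1.58 and 0.263 against 5.26 CPM (-1.42 ± 0.44, adjusted p = 0.045) and lost its call without replicate 2 or 3 (adjusted p = 0.066 and 0.054). Counts for the list were 4 higher and 2 lower of 15, and 5 higher and 7 lower without replicate 1. Without replicate 2 they were 3 and 1, and without replicate 3, 2 and 1. In the next 3 genes, the level of replicate 1 lay between those of replicates 2 and 3 and that of the Sox2-derived library. Dusp6 stood at 104, 5.94 and 4.74 against 205 CPM (adjusted p = 0.082) and gave a log2 fold change of -5.03, adjusted p = 4.3e-08 without replicate 1. Spry4, which encodes a Sprouty inhibitor of FGF signalling, stood at 11.4, 0.594 and 0.790 against 21.5 CPM (without replicate 1 -3.73, adjusted p = 9.8e-06), and Etv5 at 13.8, 1.48 and 2.11 against 21.6 CPM (without replicate 1 -3.02, adjusted p = 4.3e-06).

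WNT genes were 4 higher and 4 lower of 20 (median -0.10). The ligand genes Wnt6 and Wnt4 were lower, at 2.04, 3.17 and 1.84 against 27.0 CPM (-3.08 ± 0.30, adjusted p = 3.8e-05) and 15.7, 8.07 and 7.57 against 40.1 CPM (-1.91 ± 0.41, adjusted p = 0.0082). The nuclear effector genes Lef1 and Tcf7 were lower too, at 115, 123 and 152 against 288 CPM (-1.15 ± 0.20) and 15.1, 25.3 and 24.2 against 60.3 CPM (-1.48 ± 0.25). The secreted antagonist genes differed among themselves. Higher were Dkk2 at 128, 132 and 174 against 31.9 CPM (2.13 ± 0.40, adjusted p = 0.0036), Sfrp1 at 52.99, 29.4 and 25.9 against 9.14 CPM (1.80 ± 0.49) and Dkk3 at 27.1, 7.92 and 12.1 against 3.20 CPM (1.82 ± 0.56), the last not past the threshold without replicate 3 (adjusted p = 0.072). Frzb, another antagonist gene, stood at 63.2, 6.93 and 8.43 against 68.3 CPM (adjusted p = 0.18), and was lower without replicate 1 (log2 fold change -3.00, adjusted p = 0.00023). Lgr5, the R-spondin receptor gene, stood at 10.5, 4.55 and 4.74 against 0.457 CPM (adjusted p = 0.0062), and without replicate 1 it was not tested, since it no longer passed the filter on low values. The list had, without replicate 1, 4 higher and 6 lower of 19. The feedback targets Axin2, Nkd1 and Notum did not pass. Axin2 stood at 93.5, 556 and 546 against 349 CPM, Nkd1 at 57.7, 296 and 274 against 147 CPM and Notum at 6.11, 211 and 189.6 against 168 CPM, so that in each of them replicate 1 was the lowest of the 4 libraries and the Sox2-derived library lay between it and replicates 2 and 3.

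**Figure D3:**
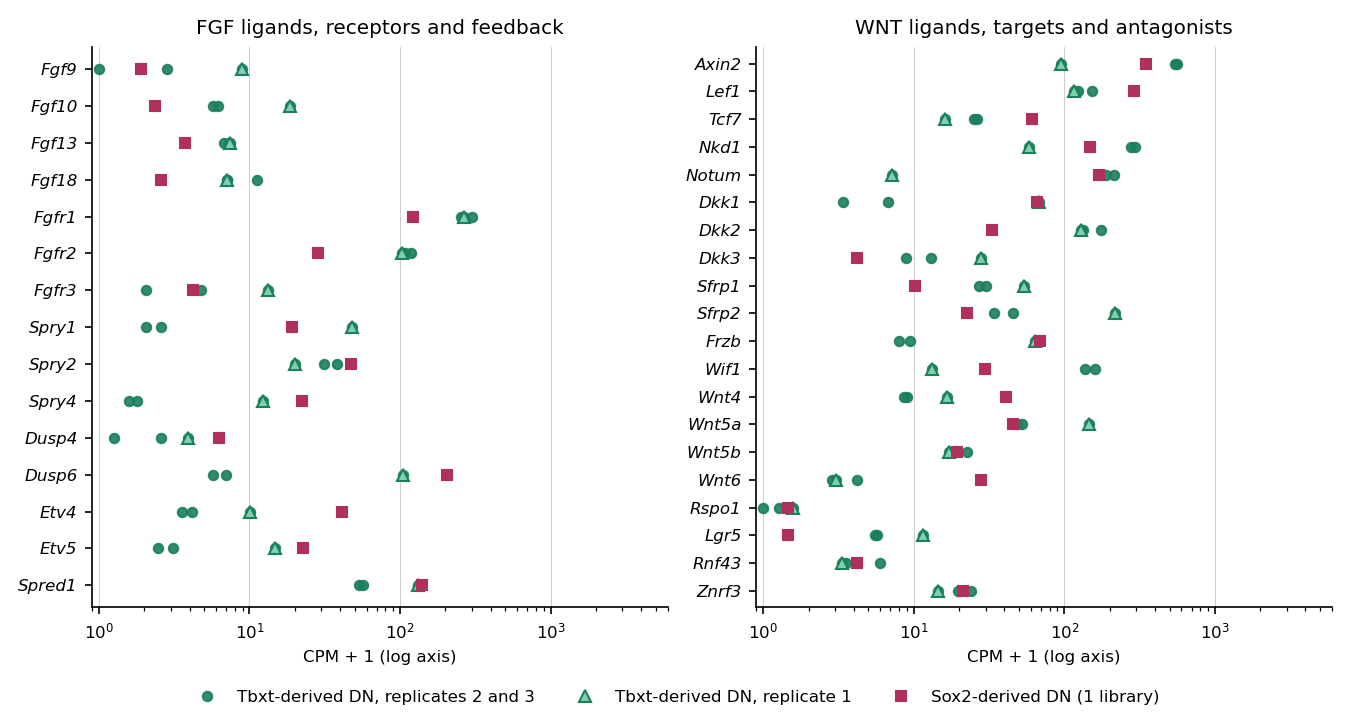
Levels (CPM + 1, log axis) of the tested FGF (left) and WNT (right) genes in the 4 DN libraries, with triangles for Tbxt-derived replicate 1, circles for replicates 2 and 3 and squares for the Sox2-derived library. Dusp6 reads 104 CPM in replicate 1 against 5.94 and 4.74 CPM in the others, and Notum reads 6.11 CPM against 211 and 189.6 CPM.

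Of 23 BMP and TGFb genes 1 was higher and 1 lower (median 0.69). Bmp7, a ligand gene of epithelia and kidney, stood at 6.26, 3.96 and 5.00 against 34.97 CPM (-2.58 ± 0.39, adjusted p = 0.001), and Tgfb3, another ligand gene, at 30.3, 17.0 and 19.5 against 6.63 CPM (1.57 ± 0.41, adjusted p = 0.02). The BMP targets Id1, Id2 and Id3 did not pass, Id1 standing at 643, 783 and 763 against 426 CPM. Without replicate 1 the counts were 5 higher and 2 lower. In the Notch list Notch3, a receptor gene of vascular mural and mesenchymal cells, was the one of 8 that was higher, at 50.7, 41.2 and 52.7 against 21.5 CPM (1.12 ± 0.25, adjusted p = 0.01). Guidance genes were higher in 5 and lower in 1 of 17 (median 1.24). Beside Ackr3 they included Ntn1, encoding netrin 1, at 13.7, 17.1 and 17.6 against 2.51 CPM (2.28 ± 0.30, adjusted p = 0.00034), Robo2, a Slit receptor gene, at 317, 475 and 485 against 120.5 CPM (1.79 ± 0.37), Sema3a, a semaphorin gene, at 118, 136 and 133 against 35.7 CPM (1.82 ± 0.29, adjusted p = 0.0013), and the Eph receptor gene Epha7 at 122, 54.4 and 45.3 against 16.9 CPM (1.93 ± 0.50, adjusted p = 0.024). The lower one was the chemokine receptor gene Cxcr4, at 0.582, 0.594 and 0.263 against 2.74 CPM (adjusted p = 0.012). The guidance counts without replicate 1 were 7 higher and 3 lower, and 1 Notch gene and 1 cadherin gene were lower. Without replicate 2 there were 2 higher BMP and TGFb genes and 2 higher Notch genes, and without replicate 3 1 Notch gene was lower. Of 8 cadherin genes 2 were higher, Cdh6 at 116, 105 and 76.6 against 29.5 CPM (1.70 ± 0.38, adjusted p = 0.0099) and the protocadherin gene Pcdh19 at 156, 115 and 120.4 against 40.7 CPM (1.64 ± 0.39, adjusted p = 0.015).

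Hox genes, whose order along the clusters follows position along the body axis, were expressed from both sources into the caudal paralogs. Hoxa10 stood at 277, 264 and 240.2 against 86.9 CPM (1.57 ± 0.31, adjusted p = 0.0054) and Hoxa9 at 130.2, 206 and 157 against 61.0 CPM (1.39 ± 0.26, adjusted p = 0.0033), both higher in Tbxt-derived cells. Hoxd1 was lower at 1.75, 0.792 and 0.790 against 20.3 CPM (-3.37 ± 0.46, adjusted p = 0.00047), against 137 CPM in the Sox2+ library. Hoxc11 was lower at 5.82, 0.396 and 0 against 28.0 CPM (-3.77 ± 0.80, adjusted p = 0.0074). Of paralogs 1 to 4, 1 was higher and 3 lower of 12, of paralogs 5 to 9, 2 were higher and none lower of 14, and of paralogs 10 to 13, 1 was higher and 2 lower of 11. The calls of Hoxb2 and Hoxc13, which were lower, and of Hoxc4 and Hoxa7, which were higher, ended without replicate 2 (adjusted p = 0.069, 0.1, 0.057 and 0.1) and without replicate 3 (adjusted p = 0.073, 0.11, 0.083 and 0.11). In several HoxD genes replicate 1 was nearer to the Sox2-derived library than to the rest of its group. Hoxd13 stood at 229, 4.55 and 10.3 against 84.6 CPM (adjusted p = 0.47; without replicate 1 -3.44, adjusted p = 0.00028), Hoxd11 at 239.7, 39.7 and 64.8 against 169 CPM (adjusted p = 0.39; without replicate 1 -1.72, adjusted p = 0.0099) and Hoxd4 at 26.8, 3.76 and 2.90 against 31.4 CPM (adjusted p = 0.17; without replicate 1 -2.91, adjusted p = 0.00031). Without replicate 1, the counts in the 3 paralog sets were 5, 2 and 5 lower and 1, 3 and 2 higher. Of the Hox cofactors, Meis2 was the largest, at 159, 249 and 242 against 21.5 CPM (3.25 ± 0.32, adjusted p = 4.3e-05), 2 of 8 being higher and, without replicate 1, 2 lower. The sources used here do not say whether counting used strand, so reads of Hox antisense transcripts cannot be told apart from the genes.

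**Figure D4:**
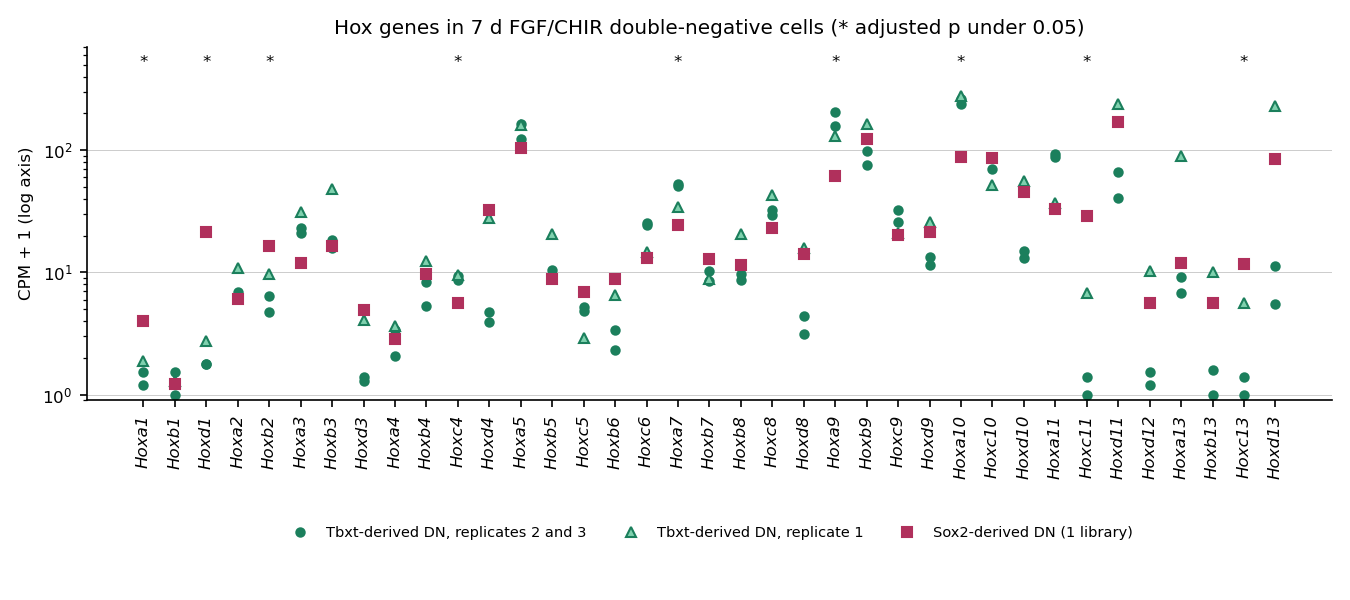
Levels (CPM + 1, log axis) of the tested Hox genes, ordered by paralog number, in the 3 Tbxt-derived DN libraries (triangles for replicate 1, circles for replicates 2 and 3) and the Sox2-derived DN library (squares), with a star at an adjusted p under 0.05. Hoxa9 and Hoxa10 are above the square in all 3 Tbxt-derived libraries, and Hoxd13 reads 229 CPM in replicate 1 against 4.55 and 10.3 CPM in the others.

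Genes of mesodermal regions differed in both directions beside Shox2 and Osr1. Intermediate mesoderm genes were higher in 3 of 6 tested, with Emx2, a homeobox gene of the urogenital system, at 10.8, 22.8 and 30.0 against 2.97 CPM (2.37 ± 0.54, adjusted p = 0.011) and Osr2, a paralog of Osr1, at 34.9, 22.8 and 55.6 against 8.69 CPM (1.91 ± 0.51, adjusted p = 0.022; without replicate 3 adjusted p = 0.064). The kidney genes Pax2, Pax8 and Lhx1 were at 0 in all 4 libraries. In the lateral plate and limb list 1 was higher and 4 lower of 12, and without replicate 1 3 were higher. Tbx3, a T-box gene of limb and heart, was among the lower ones at 35.5, 10.3 and 9.22 against 65.6 CPM (-2.04 ± 0.59, adjusted p = 0.032), and did not pass without replicate 2 or 3 (adjusted p = 0.077 and 0.083). Meox2 and Pax9, of somite and sclerotome, were higher at 7.57, 31.7 and 74.8 against 1.83 CPM (3.29 ± 0.83, adjusted p = 0.019) and 18.3, 13.3 and 16.1 against 2.97 CPM (2.08 ± 0.35, adjusted p = 0.002), and Mef2c, a factor gene of muscle and vessels, at 30.0, 30.1 and 43.2 against 5.94 CPM (2.33 ± 0.30, adjusted p = 0.0003). Tcf15, a somite factor gene, was lower at 2.62, 0 and 0 against 23.8 CPM (adjusted p = 0.001). Without replicate 1, 3 dermomyotome and muscle genes, 2 sclerotome genes and 2 intermediate mesoderm genes were lower. The muscle determination genes Pax7, Myf5, Myod1 and Myog were at 0 in all 4 libraries.

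Other cell types that the gate could hold were looked for by their markers. Of 11 neural progenitor and 10 neuron genes tested, none passed the test, and the summed levels were 655, 671 and 669 against 591 CPM and 51.2, 163 and 128 against 55.9 CPM. Without replicate 1, 2 neural progenitor genes were higher and 1 lower, and 1 neuron gene passed in each direction. Most of the first sum was Zic1, which mesoderm also expresses, at 509, 477 and 457 against 465 CPM, while Sox1 stood at 0, 0 and 0 against 0.229 CPM and Olig2 and Dbx1 were at 0 in all 4 libraries. The presomitic genes Msgn1, Ripply2 and Mesp2 were at 0 in all 4 libraries and Tbx6 stood at 0.291, 0.198 and 0.263 against 0.229 CPM. The endothelial gene Flt1, the 1 of 10 that was tested, was lower at 6.70, 0 and 0.263 against 15.8 CPM (-2.97 ± 0.84, adjusted p = 0.031; without replicate 2 adjusted p = 0.061, without replicate 3 0.077), and Emcn and Cldn5 were at 0. Globin genes Hba-a1, Hbb-bh1 and Hbb-y were at 0 in every one of the 4 libraries, and the blood list's sum of 16.3, 72.3 and 138 against 68.1 CPM was mostly Runx1 (14.6, 71.1 and 136 against 67.0 CPM), which did not pass. Of 9 neural crest and glia genes 2 were lower, the receptor genes Ngfr (4.66, 19.4 and 13.7 against 58.5 CPM, -2.32 ± 0.60) and Erbb3 (0, 0.396 and 0.527 against 2.97 CPM, adjusted p = 0.019), and none higher. Among 5 cartilage genes Col11a1, a fibrillar collagen gene, was higher (122, 59.4 and 71.1 against 23.5 CPM, 1.73 ± 0.43). Of 8 smooth muscle genes none passed, and Acta2 stood at 132, 7.57 and 12.2 against 118 CPM (adjusted p = 0.24; without replicate 1 -3.48, adjusted p = 0.00058), so that without that library 5 were lower. The summed smooth muscle level was 1666, 459 and 499 against 1153 CPM. Of 4 interferon genes Bst2, an antiviral membrane protein gene, was lower (1.75, 3.37 and 1.84 against 13.5 CPM, -2.16 ± 0.40), and of 9 immediate early and stress genes Atf3, a stress-induced factor gene, was lower (3.20, 0.792 and 0.527 against 10.7 CPM, -2.38 ± 0.47). Without replicate 1, the lower genes numbered 4 in the neural crest, 3 in the interferon and 5 in the immediate early list, and 1 cartilage gene was lower. The part of these markers in the differences between the sources was not tested.

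The Sox2::mCherry+ and Tbxt::GFP+ populations of 48 h, which stand in for the starting cells, were compared in the same fit. At that time the reporters still marked them. Sox2 stood at 217 and 221 CPM in Sox2::mCherry+ and 34.2 and 38.5 CPM in Tbxt::GFP+ cells (log2 fold change -2.56 ± 0.33, adjusted p = 0.00081), and Tbxt at 32.1 and 29.3 against 222 and 216 CPM (2.80 ± 0.36, adjusted p = 0.00081). Of 12943 genes, 505 (3.9%) differed, 265 (2.05%) being higher and 240 (1.85%) lower in Tbxt::GFP+ cells. This count depended on single libraries, with 124 genes without Tbxt::GFP+ replicate 2, 148 without Sox2::mCherry+ replicate 2 and 322 without Tbxt::GFP+ replicate 1. Among the 6 largest differences in each direction were presomitic genes and neural genes. Tbx6, the T-box gene that commits cells to paraxial mesoderm, read 0.757 and 0 CPM against 119 and 57.9 CPM, the Notch ligand gene Dll1 6.06 and 4.11 against 242 and 245 CPM, and Wnt3a 0 in both Sox2::mCherry+ libraries against 40.5 and 26.2 CPM. Sox3, a neural partner of Sox2, read 44.7 and 51.7 against 3.95 and 1.69 CPM and Pou3f2, a neural POU factor gene, 19.7 and 27.2 against 2.63 and 2.36 CPM. All 5 differed at 48 h (adjusted p = 6.8e-06, 7.2e-05, 2.1e-06, 3e-05 and 0.00041).

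These 5 genes no longer differed past the threshold at 7 d, where Tbx6, Dll1 and Wnt3a were near or at 0 from both sources, and the difference between the 2 times was itself past the threshold for each (adjusted p = 0.0002, 0.0011, 6.4e-05, 0.0022 and 0.017). The test of the difference for Pou3f2 was not past the threshold without Tbxt::GFP+ replicate 2 or Sox2::mCherry+ replicate 2 (adjusted p = 0.067 and 0.07). Snai1, an inducer of epithelial-to-mesenchymal transition, read 1.51 and 1.83 CPM in Sox2::mCherry+ and 109 and 87.1 CPM in Tbxt::GFP+ cells at 48 h (5.20 ± 0.28, adjusted p = 7.1e-07), and 69.0, 91.9 and 99.0 against 82.3 CPM at 7 d (adjusted p = 0.93), so the Sox2-derived DN library reached the level of the Tbxt-derived ones. Over all genes, 160 were past the threshold at both times, which is 31.7% of the 48 h genes and 7.38% of the 7 d genes. Among all genes tested, the shares past the threshold were 16.7% at 7 d and 3.9% at 48 h. The 2 comparisons share no library but share the estimate of the spread. Of the 160, 113 had the same direction (55 higher and 58 lower in Tbxt-derived cells at both times) and 47 the opposite one. The source difference itself differed between the times in 1194 genes (9.23%), the 7 d log2 fold change being above that of 48 h in 490 (3.79%) and below it in 704 (5.44%). Of the 1194, 154 were called at 48 h and not at 7 d and 830 called at 7 d and not at 48 h. That count was 463 without Tbxt::GFP+ 48 h replicate 2, 581 without Sox2::mCherry+ 48 h replicate 2, 767 without Tbxt-derived replicate 3 and 2356 without Tbxt-derived replicate 1.

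Genes that kept their direction included epithelial genes on one side and Meis2, Crabp1 and Pcdh19 on the other. At 48 h Cdh1 read 6.81 and 3.43 CPM in Sox2::mCherry+ and 0.506 and 0 CPM in Tbxt::GFP+ cells (adjusted p = 0.0046), Epcam 14.9 and 9.83 against 1.82 and 1.86 CPM (-2.21 ± 0.33, adjusted p = 0.0023), and Krt18 12.4 and 11.0 against 2.43 and 1.35 CPM (-2.16 ± 0.40, adjusted p = 0.0094). Each level was below that of the Sox2-derived DN library at 7 d, and all 3 differences were larger at 7 d (adjusted p of the difference between times = 0.00084, 0.021 and 0.0021). Without Tbxt::GFP+ replicate 2, Cdh1 and Krt18 did not pass at 48 h (adjusted p = 0.085 and 0.14), nor did Krt18 without Sox2::mCherry+ replicate 2 (adjusted p = 0.074), and the Epcam difference between times did not pass without either (adjusted p = 0.073 and 0.083). Of 13 epithelial genes 7 were lower in Tbxt::GFP+ cells at 48 h. The 13 genes summed to 15.9 and 12.6 CPM in the Tbxt::GFP+ libraries, so few could meet the filter's 5 CPM there. The filter thus favoured this direction at 48 h too, and that count gives no support. Of 6 tested endodermal genes none was lower then and 1, Foxa2, was higher. It stood at 0 in both Sox2::mCherry+ and 1.92 and 1.86 CPM in Tbxt::GFP+ libraries, and its call ended without any one of the 4 libraries (adjusted p = 0.061 to 0.19). The 11 endoderm genes summed to 3.53 and 3.20 CPM in the Sox2::mCherry+ libraries. At such levels a lower gene could hardly be called, so this count does not set the endodermal genes apart from the epithelial ones. At 48 h, Cubn read 0 and 0.457 CPM in Sox2::mCherry+ and 0.101 and 0 CPM in Tbxt::GFP+ cells. Meis2 read 20.9 and 26.9 against 77.1 and 99.1 CPM at 48 h (1.84 ± 0.28, adjusted p = 0.0023), Crabp1 5.55 and 5.71 against 158 and 113 CPM (4.34 ± 0.44, adjusted p = 0.00031), and Pcdh19 10.1 and 11.2 against 212 and 284 CPM (4.40 ± 0.34, adjusted p = 2.9e-05). Nkx1-2 was lower at both times, with 238 and 234 against 62.0 and 67.0 CPM at 48 h (-1.86 ± 0.30, adjusted p = 0.0042). The source difference of Pcdh19 was smaller at 7 d and that of Nkx1-2 was larger (adjusted p of the difference between times = 0.0073 and 0.0017). For Meis2 and Crabp1 the difference between times did not pass (adjusted p = 0.054 and 0.099). Without Tbxt-derived replicate 1 that of Meis2 passed (1.62, adjusted p = 0.0093) and that of Crabp1 did not (adjusted p = 0.059). Mt2, a metallothionein gene, was lower at both times, at 153 and 259 against 22.8 and 15.7 CPM at 48 h and 8.74, 5.74 and 6.32 against 245 CPM at 7 d (-4.98 ± 0.44, adjusted p = 4.5e-05).

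**Figure D5:**
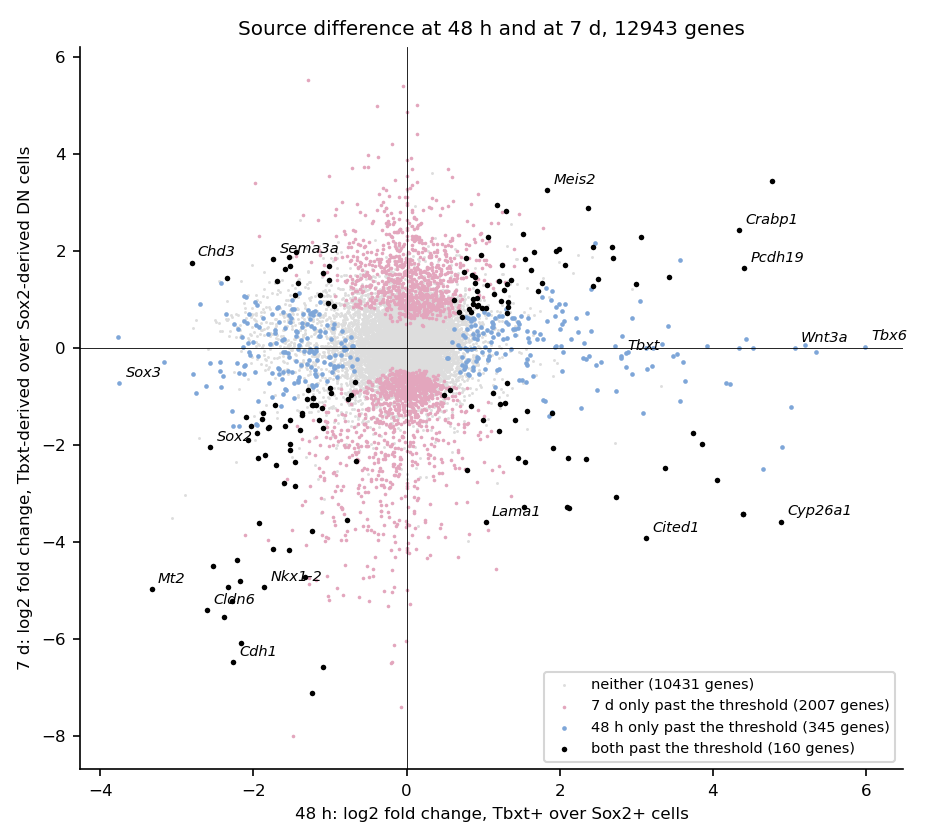
log2 fold change between sources at 48 h (Tbxt::GFP+ over Sox2::mCherry+ cells, horizontal) and at 7 d (Tbxt-derived over Sox2-derived DN cells, vertical), both on log2(CPM + 1), for 12943 genes, each point a gene coloured by the comparisons in which its adjusted p is under 0.05. The 160 black points lie in all 4 quadrants, 113 with the same and 47 with opposite directions, and Tbx6 and Wnt3a lie near 0 on the vertical axis.

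Other genes changed sides between the times. Cyp26a1 read 1.26 and 1.14 CPM in Sox2::mCherry+ and 67.0 and 61.3 CPM in Tbxt::GFP+ cells at 48 h (4.89 ± 0.24, adjusted p = 5.3e-07), and at 7 d was found in the Sox2-derived library alone, at 11.0 CPM. Cited1, a transcriptional co-activator gene of presomitic mesoderm, read 31.6 and 28.8 against 321 and 227 CPM at 48 h (3.12 ± 0.36, adjusted p = 0.00043) and 5.24, 2.57 and 2.11 against 61.3 CPM at 7 d (-3.92 ± 0.42, adjusted p = 9.5e-05). Lama1 read 18.7 and 15.3 against 39.7 and 32.1 CPM at 48 h (1.03 ± 0.26, adjusted p = 0.046), and the order of the sources was inverse at 7 d (-3.60 ± 0.30, adjusted p = 1.3e-05). The 48 h call of Lama1 ended without any one of the 4 libraries of that time (adjusted p = 0.081 to 0.33). In the opposite sense, Sema3a read 58.7 and 52.1 against 14.4 and 17.6 CPM (-1.74 ± 0.25, adjusted p = 0.0017) and Chd3, a chromatin remodeller gene, 61.7 and 82.5 against 12.2 and 7.09 CPM (-2.81 ± 0.23, adjusted p = 3e-05), and Chd3 stood at 302, 277 and 366 against 91.9 CPM at 7 d (1.76 ± 0.26, adjusted p = 0.00096). Rspo3, a secreted WNT enhancer gene, did not change sides. It was higher on the Tbxt side at both times, at 27.5 and 27.2 against 322 and 288 CPM at 48 h (3.43 ± 0.34, adjusted p = 0.00013) and 14.0, 17.0 and 22.1 against 5.71 CPM at 7 d (1.46 ± 0.40, adjusted p = 0.026). At 7 d it did not pass without replicate 3 (adjusted p = 0.066). Its source difference was smaller at 7 d (adjusted p of the difference between times = 0.035). That call ended without Tbxt-derived replicate 2 (adjusted p = 0.058) or any one of the 48 h libraries (adjusted p = 0.072 to 0.096).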

How the data were processed

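The series holds 15 bulk libraries in 8 groups, and 4 of them make up the comparison. Reads were aligned with STAR 2.7 and handled with SAMtools 1.21 on GRCm39, per the submitters' processing notes. For annotation, counting, strand and UMI use, the sources used here give nothing. The authors deposited CPM per gene and library, scaled over all rows of one table. The 21909 rows without a gene name and 92 spike-in rows were left out, and 627 rows that shared 311 symbols were summed, giving 56092 named genes. Low values held fractions of a read, so counts were not recovered and no count test was run.

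The 12943 genes reaching 5 CPM in 2 or more of the libraries entered the test on log2(CPM + 1) with limma 3.58.1 in R 4.3.3 (trend and robust moderation, two-sided, Benjamini-Hochberg adjustment over all 12943 genes), with all 15 libraries in one fit and 7 residual degrees of freedom. The 48 h populations and the difference of the source differences were contrasts of the same fit. Named genes were the reporters, the 12 largest changes per direction past the threshold with the Sox2-derived library outside the Tbxt-derived range and a mean of 20 CPM or more on the higher side, up to 4 called members of each of 38 gene lists, and the 6 largest changes per direction at 48 h. Other list members are given to describe their list and were chosen after their values were seen. The lists (509 genes, 508 of them in the table, 412 tested) and the comparison were chosen with earlier results of these data known. Alternatives changed the pseudocount, filter, scaling, weights, minimum fold and the libraries in the fit. The scripts were checked on simulated data. Python 3.11.15 wrote tables and figures.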

Additional observations from a re-analysis of the deposited data

Results flagged for a closer look

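The source difference (Tbxt side over Sox2 side) changed between 48 h and 7 d in 1194 genes, by the test of the difference itself (limma, adjusted p under 0.05), with the 7 d minus the 48 h log2 fold change above 0 in 490 and below 0 in 704. Among the named genes, 7 passed the threshold at both times in opposite directions. Foxa2, a list member given above and not counted here, did so too (adjusted p of the difference = 0.00018), and its 48 h call ended without any single 48 h library. The fitted difference, 7 d minus 48 h on the log2(CPM + 1) scale, was -8.47 for Cyp26a1 (adjusted p = 1.1e-07), which is no bound on a fold because all 3 Tbxt-derived libraries were at 0 at 7 d. It was -7.04 for Cited1 (adjusted p = 2.7e-05), -4.63 for Lama1 (adjusted p = 3.9e-05), -2.92 for Col4a1 (adjusted p = 0.00064) and -2.49 for Col4a2 (adjusted p = 0.0012). In the other direction it was 4.56 for Chd3 (adjusted p = 2.7e-05) and 3.56 for Sema3a (adjusted p = 0.00021). The 48 h side of Lama1, Col4a1 and Col4a2 was weak, since leaving out 1 library of 48 h in turn gave adjusted p = 0.081 to 0.33, 0.036 to 0.19 and 0.071 to 0.25. The 7 d arm of each value rests on 1 Sox2-derived library.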

How the results depend on the processing

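The 7 d count of 2167 genes was 5592 with array weights, 223 with a test against a 2-fold minimum, 274 (215 higher and 59 lower) in a fit of the 4 compared libraries alone and 4665 with both Sox2-derived DN libraries as 1 group, and ranged from 1367 to 3168 when 1 Tbxt-derived library was left out. The 48 h count of 505 was 1221, 57 and 1135 under the first 3 of these, and 124 to 492 without 1 library. The count of 1194 for the difference between times was 3817 with array weights and 159 with a 2-fold minimum, and 463 to 2356 without 1 library. The cause was not tested, except that a minimum fold and a fit of 4 libraries are stricter or smaller by construction. Other pseudocounts, filters and scalings and the fit without the shallow library kept each count within 1.5 times. The fit without NMP libraries, chosen after seeing the data and run for the 7 d comparison alone, gave 1656.

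With the replicate block, 365 genes were called at 48 h (192 higher and 173 lower), and 431 with the numbers crossed, which was chosen after seeing the data. Same-numbered 48 h libraries deviated from their group means with a correlation of -0.17, so the numbers were not taken to pair them. No paired analysis was possible for the 7 d comparison because the Sox2-derived group has 1 library.

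Of 123 named genes 112 were called at 7 d. The fit of the 4 libraries alone tested 79 of them and 34 kept the call, and with the 2-fold minimum 46 of 112 did. Of 97 genes tested in each of the other alternatives, 74 kept the call in all of those. No call among the 112 reversed in an alternative that tested it. A depth of 3.43 to 5.05 M reads makes levels under 0.594 to 0.874 CPM (3 reads) uninformative in the DN libraries. The 1 Sox2-derived library shows no spread of its own.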

Other observations

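Beyond the 12 genes per direction named above, the next ranked genes included epithelial and mesenchymal ones, which were chosen after their values were seen. On the Sox2-derived side, Lrp2, the gene of megalin, which takes up ligands together with cubilin, stood at 1.75, 0.396 and 0.263 against 61.9 CPM (adjusted p = 1.1e-05). Elf3 and Klf5, both transcription factor genes of epithelia, stood at 0.291, 0 and 0.527 against 49.3 CPM (adjusted p = 3e-05) and 11.6, 4.16 and 3.69 against 233 CPM (-5.12 ± 0.49, adjusted p = 7e-05). Lsr, a gene of tricellular junctions, stood at 0, 0.396 and 0.263 against 41.1 CPM (adjusted p = 3.1e-06), and Ctsc, a lysosomal protease gene, at 0.582, 0.594 and 1.32 against 57.4 CPM (adjusted p = 0.00013). 

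On the Tbxt-derived side, Runx1t1, a transcriptional co-repressor gene, stood at 154, 250.3 and 288 against 18.3 CPM (3.54 ± 0.45, adjusted p = 0.00028), and Nfix, a nuclear factor I gene, at 264, 72.9 and 121 against 11.7 CPM (3.40 ± 0.95, adjusted p = 0.035; without replicate 3 adjusted p = 0.069). Gria2, a glutamate receptor subunit gene, stood at 19.8, 14.5 and 30.0 against 0.686 CPM (adjusted p = 0.00099), and S1pr3, a receptor gene for sphingosine 1-phosphate, at 159, 58.4 and 76.0 against 7.31 CPM (3.44 ± 0.45, adjusted p = 0.00038). Smoc2, a matricellular protein gene, stood at 18.3, 31.1 and 112 against 3.20 CPM (3.30 ± 0.73, adjusted p = 0.012).

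Among the genes in which Tbxt-derived replicate 1 stood farthest from replicates 2 and 3 and which did not pass the 7 d test, the chemokine gene Cxcl12 stood at 137, 2.77 and 4.21 against 3.89 CPM (adjusted p = 0.55), the factor gene Ebf3 at 28.5, 0.198 and 0 against 0.914 CPM (adjusted p = 0.79) and the actin-binding gene Tagln at 70.2, 0.594 and 2.63 against 63.8 CPM (adjusted p = 0.22), all highest in replicate 1 among the Tbxt-derived libraries. Six2, a homeobox gene of nephron progenitors and tendon, stood at 1.46, 35.2 and 94.7 against 0.686 CPM (adjusted p = 0.12), Agtr2, an angiotensin receptor gene, at 10.8, 229 and 204 against 39.1 CPM (adjusted p = 0.62) and Wif1, a secreted WNT antagonist gene, at 12.2, 159 and 136 against 28.8 CPM (adjusted p = 0.48), all lowest in replicate 1. These genes were picked for that pattern, so the spread is a description.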
